A study of Homo sapiens with 30 samples.

Results

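Endothelin and TGF-beta signalling were followed through 10 genes of 60675 gene entries in the deposited table. They were EDN1, TGFB1, TGFB2, INHBA, BMP4, SMAD7, SKIL, TGFBI, ID1 and ID3. The genes were chosen by symbol, with earlier results of these libraries known: EDN1 had been among the genes with the largest differences for Soshiho-tang at 500 µg/mL against vehicle, and which values led to the other 9 is not recorded. The choice refers to 500 against 20 µg/mL, to the extracts against each other and to vehicle, so these comparisons are given for the 10 genes as a description, and where the number of them past edgeR's threshold is given, it describes them and supports nothing. The comparison of 100 with 20 µg/mL was not part of the choice and was tested. All 10 genes passed the filter on low counts in each fit.

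The cells were SW1783, an established human astrocytoma line, kept for 24 h with 70% ethanol extracts of herbal decoctions and profiled by bulk RNA sequencing in 30 libraries. The doses were 500, 100 and 20 µg/mL, each with 3 libraries for Soshiho-tang, 3 for Yijin-tang, 2 for Okbyeongpung-san and 1 for Soyo-san, and 3 more libraries came from cells given DMSO alone as vehicle. The labels put DMSO at 0.1%, the series description puts it at 2%, and the difference could not be settled. That description also says that a lower top concentration was used for extracts that were too toxic, while the titles of all libraries used here give 500, 100 and 20 µg/mL. Whether replicate libraries stem from separate cultures is not labelled, and SEs and p-values therefore cover a spread that may be technical only.

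Total estimated counts lay between 23.9 and 33.1 M per library, with a median of 27.4 M. Library names placed vehicle in a set of its own, Soshiho-tang and Yijin-tang together in another, and Okbyeongpung-san and Soyo-san in yet another, so the extract and the set cannot be told apart except between Soshiho-tang and Yijin-tang and between Okbyeongpung-san and the single libraries of Soyo-san. The titles also name a batch: all Soyo-san libraries and 1 Okbyeongpung-san library per dose were batch D, and all others were batch E. Mitochondrial transcripts took 10.47% to 10.7% of counts in vehicle and 5.68% to 10.61% elsewhere. Of the glial markers, GFAP reached at most 0.205 CPM, S100B 0.25 CPM and AQP4 0.0703 CPM, whereas SLC1A3 stood at 18.0 to 35.2 CPM and VIM at 3720 to 5610 CPM. GFAP, S100B and AQP4, 3 of the 5 glial markers, were therefore near 0, and the other two were not. CPM is the estimated count per 1000000 counts after TMM scaling.

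Endothelin-1, the product of EDN1, is a small secreted peptide that is cut from a precursor and acts on 2 receptors coupled to G proteins. It is best known as a constrictor of blood vessels, and reactive astrocytes and glioma cells can also make it. TGF-betas and activins bind paired serine/threonine kinase receptors that phosphorylate SMAD2 and SMAD3. BMPs use related receptors that phosphorylate SMAD1, SMAD5 and SMAD9, and both branches share SMAD4. Target genes include inhibitors of the pathway itself, such as SMAD7 and SKIL for the TGF-beta branch, and the ID genes for the BMP branch.

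Promoters were examined because SMAD proteins bind a short DNA element, the SMAD box CAGAC, read on either strand as CAGAC or GTCTG. RefSeq (GRCh38.p14) lists 16 start sites for the 10 genes, all 10 of which matched by symbol. The SMAD box occurred in the 250 bases before the start at 10 of the 16 sites, in 6 genes: EDN1, BMP4, ID3, SKIL, SMAD7 and TGFB2. The same 5 letters occurred in 38.0% of 35116 promoters of the same length. Here 3 windows are shown, 5′ to 3′ on the strand of the gene, with each SMAD box in capitals. They are those of the 2 genes with the most negative log2 difference between 500 and 20 µg/mL of Soshiho-tang, and of ID1, whose window holds no SMAD box. EDN1 lies at chr6:12290111-12290360 on the plus strand, BMP4 at chr14:53955051-53955300 on the minus strand (the first of its listed starts), and ID1 at chr20:31605039-31605282 on the plus strand, ending before the first exon in GENCODE v29.
EDN1: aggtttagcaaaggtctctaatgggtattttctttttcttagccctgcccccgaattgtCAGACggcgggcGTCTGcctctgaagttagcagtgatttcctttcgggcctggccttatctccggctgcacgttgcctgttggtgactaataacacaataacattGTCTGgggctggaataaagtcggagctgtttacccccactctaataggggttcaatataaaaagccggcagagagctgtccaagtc
BMP4: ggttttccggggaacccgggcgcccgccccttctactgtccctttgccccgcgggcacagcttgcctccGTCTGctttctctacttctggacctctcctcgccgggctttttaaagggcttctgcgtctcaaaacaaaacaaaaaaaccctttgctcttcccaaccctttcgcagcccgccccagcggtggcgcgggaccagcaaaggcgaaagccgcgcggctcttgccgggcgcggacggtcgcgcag
ID1: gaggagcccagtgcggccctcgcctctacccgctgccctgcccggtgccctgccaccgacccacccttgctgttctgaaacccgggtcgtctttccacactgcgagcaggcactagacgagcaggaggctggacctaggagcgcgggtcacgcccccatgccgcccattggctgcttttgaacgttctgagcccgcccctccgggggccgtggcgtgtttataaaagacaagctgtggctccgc
The EDN1 window holds 3 SMAD boxes, whose first bases lie 191, 179 and 86 bases before the start. This is the last of the listed EDN1 starts, and the windows of the others, not shown, hold 2 and 1. In the BMP4 window there is 1, at 181 bases before the start, and a BMP-SMAD core GGCGCC at 232 bases. That core was found at 3 of the 16 start sites (in BMP4, SKIL and TGFBI) and in 16.4% of all promoters. Neither the palindrome GTCTAGAC (0.182% of all promoters) nor the AP-1 letters TGANTCA (6.57%) occurred in any of the 16 windows. A match is a run of letters in the reference and not a measured binding site.

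EDN1 (ENSG00000078401, chromosome 6, 12290363 to 12297194, plus strand, GRCh38) was the least expressed of the 10 genes, with 20 to 118 counts per library. In vehicle it stood at 4.25, 3.75 and 3.87 CPM. With Soshiho-tang it stood at 3.75, 3.53 and 3.36 CPM at 20 µg/mL, at 3.44, 2.22 and 3.02 CPM at 100 and at 0.65, 0.819 and 0.882 CPM at 500. Each of the 3 libraries at 500 µg/mL lay below every other library of the 30, and the log2 difference between 500 and 20 µg/mL was -2.18 ± 0.17 (SE). In bulk RNA, fewer cells that make a transcript and less of it per cell cannot be told apart.

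Yijin-tang left EDN1 at 3.17, 3.23 and 2.59 CPM at 20 µg/mL, 3.58, 3.33 and 2.76 CPM at 100, and 2.14, 2.08 and 2.23 CPM at 500. The 500 µg/mL libraries lay below those at 20 without overlap, by -0.49 ± 0.15 on the log2 scale, a difference that did not pass the threshold used for counts of genes. With Okbyeongpung-san the values were 2.97 and 3.48 CPM at 20 µg/mL, 2.37 and 2.54 CPM at 100, and 1.09 and 1.8 CPM at 500 (log2 difference 500 against 20, -1.16 ± 0.22). Soyo-san gave 3.25, 3.51 and 1.26 CPM at 20, 100 and 500 µg/mL in single libraries. All 4 extracts thus had their lowest EDN1 at 500 µg/mL, in the order Soshiho-tang, Soyo-san, Okbyeongpung-san and Yijin-tang, and the Soyo-san value lay inside the range of Okbyeongpung-san. Summed endothelial markers (PECAM1, CDH5, VWF and TEK) ranged from 1.36 to 2.15 CPM with Soshiho-tang at 500 µg/mL and from 1.86 to 2.31 CPM at 20. CDH5 was at most 0.0985 CPM and VWF at most 0.341 CPM in any library.

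Some markers of other cells moved with dose as EDN1 did. Of the 4 leukocyte markers, PTPRC (CD45) stood at 12.3 to 13.0 CPM at 20 µg/mL of Soshiho-tang and 4.20 to 4.78 CPM at 500, while CD14 and AIF1 reached at most 0.478 and 0.0362 CPM in any library. The mean of PTPRC went from 11.6 to 8.34 CPM with Yijin-tang and from 11 to 6.11 CPM with Okbyeongpung-san. CD68, which is not restricted to leukocytes, went the other way with Soshiho-tang, from a mean of 144 to 211 CPM, so that the sum of the 4 was 136 to 193 CPM at 20 µg/mL and 198 to 230 CPM at 500. The glial marker SLC1A3 went from a mean of 27.4 to 19.0 CPM with Soshiho-tang. The part of these cells or markers in the values of the 10 genes was not tested.

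**Figure D1:**
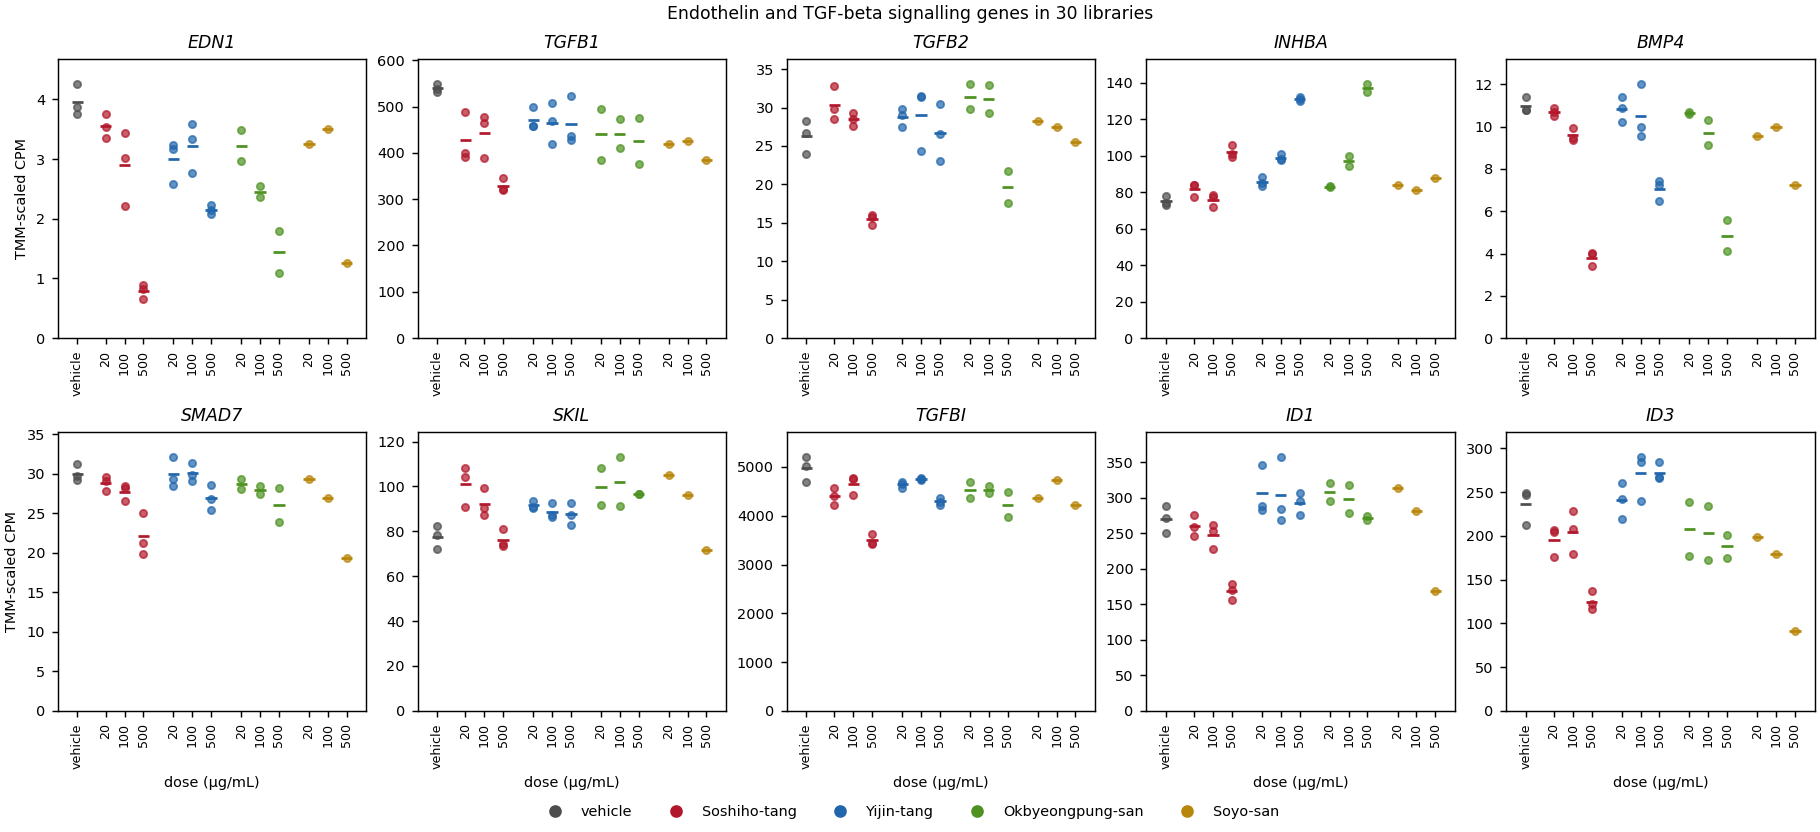
TMM-scaled CPM (vertical axis, starting at 0, a scale per gene) of the 10 genes in each of 30 libraries, by dose in µg/mL (horizontal axis) and extract (colour). Points are libraries and short lines are group means; EDN1 with Soshiho-tang at 500 µg/mL sits between 0.65 and 0.882 CPM, below all other libraries.

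TGFB1 (ENSG00000105329, chromosome 19, 41301587 to 41353911, minus strand) encodes the most widespread TGF-beta ligand. It stood at 539, 548 and 531 CPM in vehicle, and with Soshiho-tang at 400, 392 and 489 CPM at 20 µg/mL and 345, 323 and 320 CPM at 500 (-0.37 ± 0.09 SE). These were again the 3 lowest of the 30 libraries. Yijin-tang at 500 µg/mL gave 427, 436 and 523 CPM, overlapping its 20 µg/mL libraries at 458, 500 and 458 CPM. On the other strand 4 genes overlap TGFB1 in GENCODE v29, and because the strand setting of the counting is not given, reads from the overlaps cannot be assigned with certainty.

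TGFB2 (ENSG00000092969, chromosome 1, 218346235 to 218444619, plus strand) encodes the TGF-beta form known for its presence in glioma. Vehicle libraries held 24.0, 28.2 and 26.7 CPM. With Soshiho-tang it was 28.5, 29.8 and 32.8 CPM at 20 µg/mL and 16.0, 14.7 and 15.8 CPM at 500 (-0.97 ± 0.10 SE). Okbyeongpung-san gave 33.0 and 29.8 CPM at 20 µg/mL and 21.7 and 17.6 CPM at 500 (-0.68 ± 0.12 SE), whereas the Yijin-tang groups overlapped, with 27.4, 29.8 and 29 CPM at 20 µg/mL and 23.1, 26.5 and 30.5 CPM at 500. Soyo-san held 28.3 CPM at 20 and 25.5 CPM at 500 µg/mL. A transcript on the same strand, TGFB2-OT1, lies inside the gene and may share its reads.

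INHBA (ENSG00000122641, chromosome 7, 41667168 to 41705834, minus strand) encodes the beta-A subunit of activin A and was the only 1 of the 10 genes that was higher at 500 than at 20 µg/mL in every extract. Vehicle stood at 74.1, 73.1 and 78.0 CPM. In Yijin-tang it was 85.1, 83.6 and 88.4 CPM at 20 µg/mL, 101, 98.0 and 97.6 CPM at 100, and 130, 131 and 132 CPM at 500 (0.60 ± 0.05 SE). Okbyeongpung-san followed the same order, with 83.5 and 82.6 CPM at 20 µg/mL, 99.6 and 94.3 CPM at 100, and 139 and 135 CPM at 500 (0.72 ± 0.07). Neither extract had overlapping libraries between any of its 3 doses. With Soshiho-tang the 100 µg/mL libraries, at 71.9, 78.4 and 77.5 CPM, did not lie between those at 20 (77.1, 83.9 and 84.0 CPM) and at 500 (99.2, 101 and 106 CPM), and the difference between 500 and 20 was 0.32 ± 0.05. Soyo-san held 83.7, 81.4 and 87.8 CPM at 20, 100 and 500 µg/mL. INHBA-AS1 overlaps INHBA on the other strand, so the same limit on strand applies.

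BMP4 (ENSG00000125378, chromosome 14, 53949736 to 53958761, minus strand) encodes a BMP that drives astroglial differentiation of neural precursors. It was lower at 500 than at 20 µg/mL in each extract. Vehicle stood at 11.4, 10.8 and 10.8 CPM. Soshiho-tang at 20 µg/mL gave 10.9, 10.5 and 10.7 CPM and at 500 gave 4.03, 3.96 and 3.42 CPM (-1.49 ± 0.09 SE). Okbyeongpung-san gave 10.6 and 10.7 CPM at 20 µg/mL and 4.11 and 5.59 CPM at 500 (-1.14 ± 0.14), and Yijin-tang gave 10.9, 10.2 and 11.4 CPM and 6.47, 7.25 and 7.44 CPM (-0.63 ± 0.09). In none of these 3 extracts did the libraries at 500 µg/mL overlap those at 20. The single Soyo-san libraries held 9.58 CPM at 20 and 7.26 CPM at 500 µg/mL.

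SMAD7 and SKIL encode inhibitors of the pathway that TGF-beta itself induces: SMAD7 blocks the receptors, and SKIL (SnoN) is a co-repressor of SMAD complexes. SMAD7 (ENSG00000101665, chromosome 18, 48919853 to 48952052, minus strand) stood at 29.7, 29.2 and 31.2 CPM in vehicle. With Soshiho-tang it was 27.8, 29.1 and 29.6 CPM at 20 µg/mL and 19.8, 21.3 and 25.1 CPM at 500 (-0.39 ± 0.07 SE). The single Soyo-san library at 500 µg/mL, at 19.3 CPM, was the lowest of all 30. SKIL (ENSG00000136603, chromosome 3, 170357678 to 170396835, plus strand) differed from the other genes in where vehicle lay. Its vehicle libraries, at 71.9, 78.2 and 82.4 CPM, overlapped Soshiho-tang at 500 µg/mL (74.3, 73.3 and 81.2 CPM) and lay below Soshiho-tang at 20 (104, 108 and 90.8 CPM). Okbyeongpung-san at 500 µg/mL gave 96.5 and 96.8 CPM, between its 20 µg/mL libraries at 108 and 91.8 CPM.

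TGFBI, ID1 and ID3 are textbook targets. TGFBI (ENSG00000120708, chromosome 5, 136028895 to 136063818, plus strand), a secreted matrix protein named for its induction by TGF-beta, was the most abundant of the 10, at 5200, 5030 and 4690 CPM in vehicle. Soshiho-tang gave 4410, 4220 and 4560 CPM at 20 µg/mL and 3630, 3450 and 3430 CPM at 500 (-0.33 ± 0.05 SE). Yijin-tang at 500 µg/mL, with 4290, 4220 and 4370 CPM, also lay below its 20 µg/mL libraries at 4570, 4660 and 4700 CPM, by -0.12 ± 0.05.

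ID1 (ENSG00000125968, chromosome 20, 31605283 to 31606515, plus strand) and ID3 (ENSG00000117318, chromosome 1, 23557918 to 23559794, minus strand) encode inhibitors of basic helix-loop-helix transcription factors. ID1 stood at 288, 272 and 250 CPM in vehicle. With Soshiho-tang it was 246, 259 and 275 CPM at 20 µg/mL and 156, 179 and 170 CPM at 500 (-0.63 ± 0.09 SE). ID3 stood at 247, 249 and 213 CPM in vehicle, at 207, 176 and 204 CPM with Soshiho-tang at 20 µg/mL and at 137, 116 and 122 CPM at 500 (-0.64 ± 0.09). Yijin-tang at 500 µg/mL did not share these low levels: its ID1 was 295, 307 and 276 CPM and its ID3 267, 284 and 266 CPM, against 283, 289 and 346 CPM and 219, 242 and 261 CPM at 20. Soyo-san at 500 µg/mL, in 1 library, had 169 CPM of ID1 and 90.8 CPM of ID3, the lowest ID3 of all 30 libraries, against 313 and 199 CPM at 20.

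Per kilobase of exon, vehicle levels ran from 637 CPM per kb for TGFBI through 219 for ID1, 167 for TGFB1 and 131 for ID3. SKIL followed at 9.96 CPM per kb, INHBA at 9.04, SMAD7 at 5.97, TGFB2 at 5.11, BMP4 at 3.57 and EDN1 at 1.95. At 500 µg/mL of Soshiho-tang, ID1 stood at 136 CPM per kb and TGFB1 at 102, and EDN1 at 0.385. On this scale INHBA at 12.3 CPM per kb passed SKIL at 9.80, while the ligands TGFB2 and BMP4 stood at 3.01 and 1.23.

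Counted together, all 10 genes passed the threshold (adjusted p under 0.05 in edgeR's quasi-likelihood test over all genes) at 500 against 20 µg/mL of Soshiho-tang. Of 16872 genes tested, 28.9% did so, 14.6% higher and 14.2% lower. Of the 10, 9 were lower and 1, INHBA, was higher, and for none did the libraries of both doses overlap, which held for 43.4% of all genes (21.2% lower). In Yijin-tang 2 of 10 passed, INHBA higher and BMP4 lower, where 5.64% of all genes did (2.7% higher and 2.94% lower). Okbyeongpung-san had 4 of 10, with EDN1, TGFB2 and BMP4 lower and INHBA higher, where 10.3% of 16643 genes passed (5.21% higher and 5.1% lower). The median log2 difference of the 10 genes was -0.52, -0.09 and -0.15 in the order named, and that of all genes was 0.01, 0.00 and 0.00. Since the genes were chosen on these contrasts, nothing is read from the counts. The EDN1 call in Okbyeongpung-san was lost without its replicate 2 at 500 µg/mL (log2 difference -0.86), and the TGFB2 call without its replicate 2 at 20 µg/mL (-0.60).

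**Figure D2:**
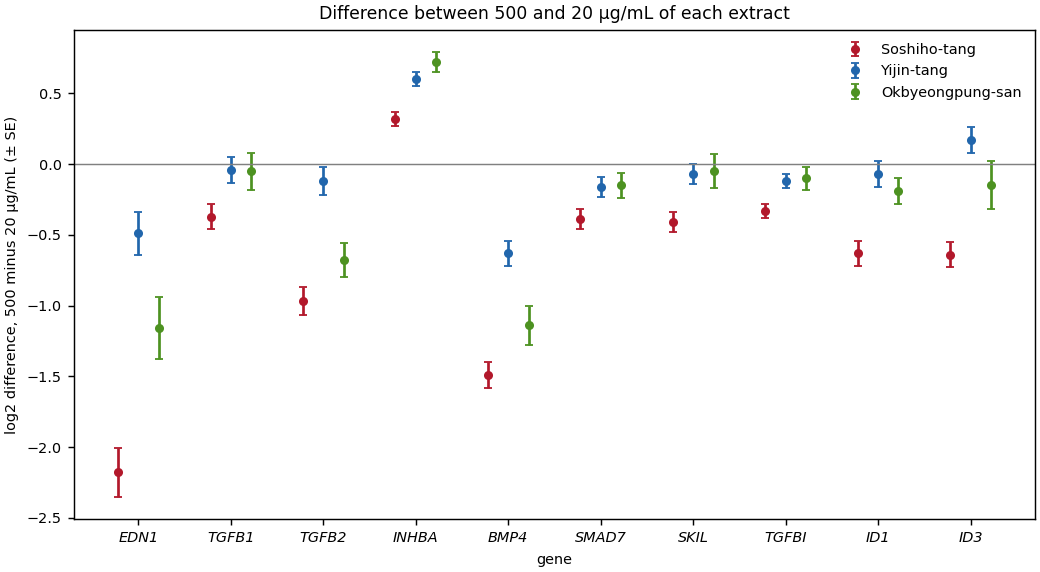
Log2 difference between 500 and 20 µg/mL (vertical axis) for each of the 10 genes (horizontal axis) and 3 extracts, as fitted value with its SE as the bar. INHBA is above 0 in all 3 extracts, and BMP4 is below 0 in all 3, from -0.63 in Yijin-tang to -1.49 in Soshiho-tang.

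The middle dose was tested against the lowest, a contrast outside the choice of genes that shares its 20 µg/mL libraries with the contrast above. None of the 10 genes passed in edgeR's test in any of the 3 extracts, and DESeq2 also called none. Over all genes, 0.0711% passed with Soshiho-tang, 0.00593% with Yijin-tang and 0% with Okbyeongpung-san. At an unadjusted p under 0.05 there was 1 gene in each extract, INHBA in all 3 cases. INHBA was 0.20 ± 0.05 higher at 100 than at 20 µg/mL of Yijin-tang (SE, edgeR adjusted p = 0.526), higher in 3 of 3 libraries, and 0.21 ± 0.07 higher in Okbyeongpung-san (adjusted p = 1.0), while in Soshiho-tang the difference was -0.10 ± 0.05 (adjusted p = 1.0). For EDN1 the 95% intervals (normal approximation from the SE) were -0.55 to -0.01 in Soshiho-tang, -0.18 to 0.36 in Yijin-tang and -0.82 to 0.00 in Okbyeongpung-san. This approximation ignores how few libraries there are, so the intervals are too narrow. The unadjusted p of EDN1 in edgeR's test was 0.0597 in Soshiho-tang and 0.0792 in Okbyeongpung-san, not under 0.05. The estimates at 100 µg/mL thus do not reach the -2.18 and -1.16 seen at 500 µg/mL of Soshiho-tang and Okbyeongpung-san. The difference of the 100 against 20 µg/mL response between Soshiho-tang and Yijin-tang draws on comparisons between extracts that were part of the choice, so it is a description: edgeR called none of the 10 genes (0% of all genes), 1 had an unadjusted p under 0.05, and DESeq2 called 1, INHBA.

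Soshiho-tang and Yijin-tang, which share a library set, were set side by side at each dose. At 500 µg/mL all 10 genes were lower with Soshiho-tang and no libraries overlapped, with differences from -0.20 ± 0.07 for SKIL to -1.46 ± 0.18 for EDN1. ID3 (-1.12 ± 0.09), BMP4 (-0.89 ± 0.10), ID1 (-0.80 ± 0.09) and TGFB2 (-0.78 ± 0.10) lay between them. Of all genes, 38.8% had no overlap (19.1% lower), and 25.2% passed the threshold, 12.5% higher and 12.8% lower. All 10 genes passed it, SKIL not without replicate 1 or 2 of either extract. At 100 µg/mL, 2 of the 10 passed, INHBA (-0.38 ± 0.05) and ID3 (-0.40 ± 0.09), against 0.753% of all genes. The count was 1 without Soshiho-tang replicate 1 or 2 or Yijin-tang replicate 1 or 3. At 20 µg/mL none did in edgeR or DESeq2, 2 had an unadjusted p under 0.05, and 0.13% of all genes passed. The 500 against 20 µg/mL difference was more negative in Soshiho-tang than in Yijin-tang for each of the 10 genes, by -0.21 ± 0.06 (TGFBI) to -1.69 ± 0.23 (EDN1). Of these, 8 passed the threshold, where 13.6% of all genes did, and TGFB1 (-0.33 ± 0.12) and SMAD7 (-0.23 ± 0.10) did not. The TGFBI call was lost in 9 of the 12 fits that left out 1 of these libraries and the SKIL call in 5, while TGFB1 passed without Soshiho-tang replicate 2 at 20 µg/mL and SMAD7 without Soshiho-tang replicate 3 at 500.

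Okbyeongpung-san was compared with both at 500 µg/mL in a fit of 27 libraries, across library sets. All 10 genes were higher than with Soshiho-tang, from 0.25 ± 0.08 for SMAD7, whose libraries overlapped, to 0.90 ± 0.23 for EDN1. All 10 passed, against 18.3% of all genes, but 6 passed without Soshiho-tang replicate 2 or when only both groups were fitted. Okbyeongpung-san replicate 3 is of title batch D, while all Soshiho-tang and Yijin-tang libraries are batch E. Without replicate 3 the difference from Soshiho-tang was 0.50 for EDN1, 0.20 for TGFB1, 0.12 for BMP4 and 0.13 for SMAD7. Each of these was higher in batch D than in batch E at 500 µg/mL. Without replicate 2, of batch E, TGFB2 differed by 0.18. The part of the batch was not tested. Against Yijin-tang 4 genes passed and were lower, EDN1 (-0.56 ± 0.20), TGFB2 (-0.43 ± 0.12), BMP4 (-0.53 ± 0.12) and ID3 (-0.53 ± 0.13), against 21.7% of all genes. Without Okbyeongpung-san replicate 2 the count was 1, as it was when only both groups were fitted, and without Yijin-tang replicate 3 it was 2. INHBA did not pass (0.07 ± 0.05), at 135 to 139 CPM with Okbyeongpung-san and 130 to 132 CPM with Yijin-tang.

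Within Okbyeongpung-san each dose had 1 library of batch D and 1 of batch E. EDN1 was lower at 500 than at 20 µg/mL within both, by -0.95 on the log2 scale in D and -1.44 in E. BMP4 was lower by -0.94 and -1.37, and TGFB2 by -0.76 and -0.61, and INHBA was higher by 0.70 and 0.74. TGFB1 followed the batch more than the dose: it was 495, 473 and 475 CPM in batch D and 385, 410 and 376 CPM in batch E at 20, 100 and 500 µg/mL. ID3 was 239, 234 and 201 CPM in D and 177, 173 and 175 CPM in E, so it was higher in batch D at every dose. On the log2 scale batch D was above batch E by 0.21 to 0.36 for TGFB1, whose difference between 500 and 20 µg/mL was -0.06 in D and -0.03 in E. For ID3 it was above by 0.19 to 0.44, and the difference between 500 and 20 µg/mL was -0.25 in D and -0.01 in E.

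**Figure D3:**
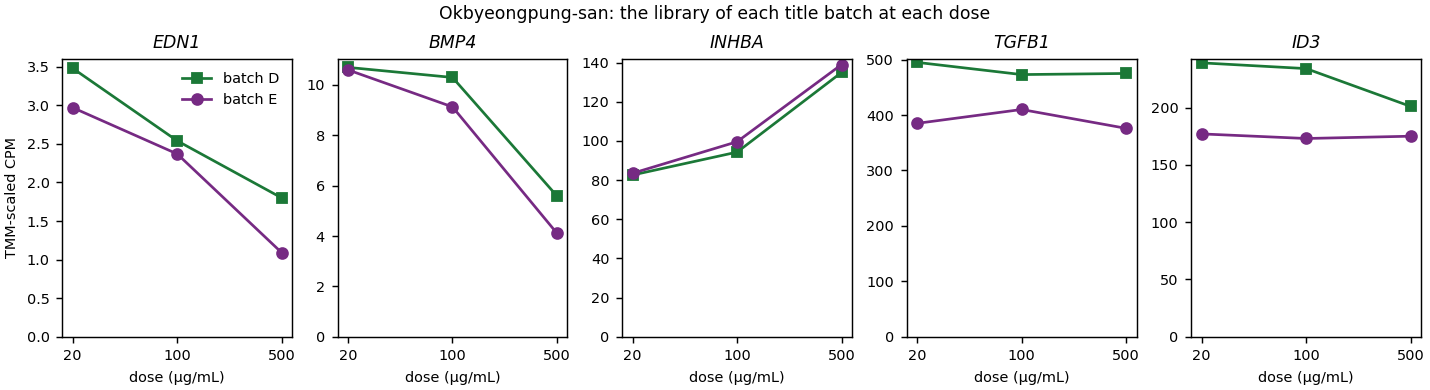
TMM-scaled CPM (vertical axis, starting at 0) of 5 genes in the 6 Okbyeongpung-san libraries by dose in µg/mL (horizontal axis), with lines joining the libraries of title batch D and of batch E. EDN1, BMP4 and INHBA move with dose in both batches, whereas TGFB1 and ID3 lie higher in batch D at all 3 doses.

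Vehicle served as a further reference, although its libraries form a set of their own. Their mitochondrial shares, 10.47% to 10.7%, were matched elsewhere only by replicate 3 of Yijin-tang at 500 µg/mL (10.61%). At 500 µg/mL 9 of the 10 genes passed for Soshiho-tang, all but SKIL (-0.03 ± 0.07), where 43.9% of all genes did. For Yijin-tang 5 of 10 passed (31.3% of all genes): EDN1 (-0.89 ± 0.15), BMP4 (-0.65 ± 0.09), TGFB1 and TGFBI were lower and INHBA (0.79 ± 0.05) was higher. The TGFB1 call was lost without any 1 of the 3 vehicle libraries and without Yijin-tang replicate 1 or 2. For Okbyeongpung-san 5 of 10 passed (24.7%), with EDN1 (-1.44 ± 0.21), BMP4 (-1.17 ± 0.13) and TGFB2 lower and INHBA (0.88 ± 0.06) and SKIL (0.33 ± 0.11) higher, and 3 passed without vehicle replicate 2 or 3. The SKIL call was lost without any 1 of the 5 libraries, and the TGFB2 call also without Okbyeongpung-san replicate 3. Some of these differences were already present at 20 µg/mL. Soshiho-tang at 20 µg/mL had 4 of 10 past the threshold (21.8% of all genes), TGFB1 (-0.35 ± 0.09), TGFBI and ID3 lower and SKIL (0.37 ± 0.07) higher. The ID3 call was lost without vehicle replicate 1 or 2 or Soshiho-tang replicate 2. Yijin-tang at 20 had 2, INHBA (0.19 ± 0.05) and SKIL (0.24 ± 0.07), against 19.8% of all genes, and 1 without vehicle replicate 1 or Yijin-tang replicate 2. Okbyeongpung-san at 20 had none in edgeR's test and 1 in DESeq2's, with 5 at an unadjusted p under 0.05, against 2.24% of all genes. These 372 genes became 9 to 26 when any 1 of the 5 libraries was left out and 40 with the replicate number as a block. EDN1 and BMP4 did not pass against vehicle at 20 µg/mL in any of the 3 extracts. The EDN1 libraries at 20 µg/mL lay below vehicle without overlap in all 3. Their log2 differences were -0.17 ± 0.14 (Soshiho-tang), -0.40 ± 0.14 (Yijin-tang) and -0.28 ± 0.18 (Okbyeongpung-san). What share of all genes had no overlap in these comparisons was not computed. A block on the replicate number ties vehicle to the extracts by number only. The part of the library set in the vehicle comparisons was not tested.

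Soyo-san had 1 library per dose, so its values have no replicate check. The log2 ratio of CPM + 1 between 500 and 20 µg/mL was -1.12 for ID3, -0.91 for EDN1, -0.89 for ID1, -0.58 for SMAD7 and -0.54 for SKIL. For BMP4 it was -0.36, and for TGFB1, TGFB2, INHBA and TGFBI it lay between -0.14 and 0.07. Thus 5 of the 10 genes lay past 0.5, all of them lower. Of 14120 genes with at least 1 CPM in one of both libraries, 2.58% did so in either direction. Since the genes were chosen with this contrast in view, nothing is read from the count. In the 500 µg/mL library ID1, at 169 CPM, lay inside the range of Soshiho-tang at 500 (156 to 179 CPM) and ID3, at 90.8 CPM, below it (116 to 137 CPM), and TGFB2, at 25.5 CPM, lay inside the range of Yijin-tang at 500.

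Other genes of the same pathways were taken from 10 lists of 72 genes, of which 64 were tested (65 in the fit of 27 libraries). EDN2, EDN3, EDNRB, ACVRL1, NOX4, BMP7, INHBB and CHRD were too low in the fits of each extract with vehicle. The lists were written with earlier results known. Between 500 and 20 µg/mL of Soshiho-tang 40 of 64 passed, 10 higher and 30 lower (median -0.15, all genes 0.01), where 28.9% of all genes did. Yijin-tang had 10 of 64, 3 higher and 7 lower (median -0.04), against 5.64%, and 5 or 6 without any 1 of replicates 1 and 2 at 500 µg/mL or 2 and 3 at 20. Okbyeongpung-san had 7, 3 higher and 4 lower (median -0.07), against 10.3%, and 4 without its replicate 2 at 20 µg/mL. Of the genes named below for these contrasts, 1 of 19 lost its call in Soshiho-tang when some single libraries were left out (FST, adjusted p up to 0.116). In Yijin-tang 5 of 8 did (ECE2, TGFBR1, TGFBR3, SMAD9 and PMEPA1, up to 0.166), and in Okbyeongpung-san 4 of 7 (LTBP4, BMP6, ACTA2 and CCN2, up to 0.154). At 100 against 20 µg/mL edgeR called none in any extract, with 6, 3 and 0 genes at an unadjusted p under 0.05 and 0, 1 and 0 called by DESeq2 in the order named.

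On the endothelin axis, EDNRA, the receptor for endothelin-1 on contractile cells, rose with Soshiho-tang from 3.40, 3.56 and 4.52 CPM at 20 µg/mL to 5.66, 5.76 and 6.07 CPM at 500. The log2 difference was 0.60 ± 0.14 (SE, edgeR adjusted p = 0.002), so receptor and ligand RNA differed in opposite directions between these doses. In Yijin-tang EDNRA differed by -0.04 ± 0.14 (adjusted p = 0.93). The precursor-cutting enzyme ECE1 stood at 388 to 403 CPM and 373 to 393 CPM at both doses of Soshiho-tang and did not pass (-0.05 ± 0.05, adjusted p = 0.52). Its relative ECE2 rose with Soshiho-tang (0.58 ± 0.08, adjusted p = 9.3e-06) and with Yijin-tang (0.30 ± 0.08, adjusted p = 0.031). EDNRB, the receptor usually found on astrocytes, was below the filter on low counts, with 0.0834 to 0.215 CPM in vehicle.

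Among 9 genes for TGF-beta ligands, storage and activation, 6 were lower and none higher with Soshiho-tang at 500 against 20 µg/mL (median -0.31). TGFB3, the third TGF-beta ligand, fell from 14.3, 15.5 and 16.0 CPM to 6.63, 6.99 and 7.43 CPM (-1.12 ± 0.08 SE, edgeR adjusted p = 6.9e-10). ITGB8, an integrin subunit that activates latent TGF-beta, was lower and passed the threshold in all 3 extracts. The same held for CCN2 and ACTA2 and for none other of the 64 genes. What share of all genes did so in all 3 extracts was not computed, so nothing is read from this count. Genes that were lower without passing are not counted here. For ITGB8 the differences were -0.89 ± 0.08 with Soshiho-tang (adjusted p = 9.8e-09), -0.77 ± 0.08 with Yijin-tang (adjusted p = 2.2e-06) and -0.83 ± 0.13 with Okbyeongpung-san (adjusted p = 0.0036). LTBP4, a latent TGF-beta binding protein, rose in Okbyeongpung-san (0.73 ± 0.17, adjusted p = 0.024).

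With Soshiho-tang 3 of 7 tested TGF-beta and activin receptors were lower and 1 higher (median 0.03), and TGFBR2, the ligand-binding receptor, differed by -0.37 ± 0.05 (SE, edgeR adjusted p = 5.3e-06) and the co-receptor ENG by -0.47 ± 0.09 (adjusted p = 0.00037). With Yijin-tang TGFBR1 rose (0.29 ± 0.08, adjusted p = 0.024) and the co-receptor TGFBR3 fell (-0.35 ± 0.08, adjusted p = 0.014). Of 4 tested activin ligands and antagonists, INHBE, a liver-type activin subunit, rose with Soshiho-tang from 0.52 to 0.689 CPM up to 1.62 to 1.84 CPM (1.46 ± 0.21, adjusted p = 1.1e-05), and FST, the activin antagonist follistatin, fell (-0.56 ± 0.18, adjusted p = 0.024).

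In the BMP branch, BMP2 rose with Soshiho-tang from 0.569 to 0.822 CPM up to 1.32 to 1.72 CPM (1.16 ± 0.23 SE, edgeR adjusted p = 0.0006), against the direction of BMP4, and BMPR2, its receptor, fell (-0.34 ± 0.07, adjusted p = 0.00089). All 5 tested BMP antagonists passed, 4 lower and 1 higher (median -0.69). Of these, noggin, NOG, fell by -0.88 ± 0.21 (adjusted p = 0.0033). BMP6 rose with Okbyeongpung-san from 0.686 and 0.935 CPM to 1.73 and 2.06 CPM (1.21 ± 0.27, adjusted p = 0.02).

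Of the BMP target genes, 3 of 6 were lower and none higher with Soshiho-tang (median -0.62). ID2 fell from 26.0, 29.6 and 30.1 CPM to 11.5, 13 and 14 CPM (-1.15 ± 0.08 SE, edgeR adjusted p = 3.2e-10), and ID4 from 4.03, 4.27 and 4.46 CPM to 1.07, 1.33 and 1.71 CPM (-1.63 ± 0.16, adjusted p = 9.7e-08). All 4 ID genes thus stood lower at 500 than at 20 µg/mL of Soshiho-tang without overlap. ID2 and ID4 did not pass with Yijin-tang (-0.24 ± 0.07, adjusted p = 0.055 and -0.30 ± 0.14, adjusted p = 0.26). ATOH8, a helix-loop-helix factor induced by BMPs, fell in Okbyeongpung-san from 27.3 and 27.6 CPM to 18.9 and 20.2 CPM (-0.50 ± 0.08, adjusted p = 0.0041).

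Of 11 tested TGF-beta target genes, 6 were lower and 2 higher with Soshiho-tang (median -0.29). SNAI1, a repressor of epithelial genes, fell from 19.8, 24.8 and 28.3 CPM to 11.6, 12 and 12 CPM (-1.03 ± 0.14 SE, edgeR adjusted p = 5.6e-06). CCN2, the connective tissue growth factor, fell in all 3 extracts, by -0.76 ± 0.07, -0.44 ± 0.07 and -0.30 ± 0.08. ACTA2, smooth muscle actin, fell by -0.81 ± 0.06 with Soshiho-tang and -0.44 ± 0.09 with Okbyeongpung-san, and also passed in Yijin-tang (-0.25 ± 0.06, adjusted p = 0.012). SPHK1, a sphingosine kinase, rose with Okbyeongpung-san (0.81 ± 0.12, adjusted p = 0.003).

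Among the SMAD transducers, SMAD3 alone passed with Soshiho-tang, falling from 144, 147 and 152 CPM to 107, 108 and 112 CPM (-0.44 ± 0.05 SE, edgeR adjusted p = 3.1e-07). SMAD9, of the BMP branch, rose with Yijin-tang (0.45 ± 0.11, adjusted p = 0.021). Of 7 feedback inhibitors and co-repressors 4 were lower and 1 higher with Soshiho-tang (median -0.14). SMAD6, the inhibitory SMAD of the BMP branch, fell by -0.61 ± 0.06 (adjusted p = 1.7e-07), next to the lower SMAD7. TGIF1, a co-repressor that competes at SMAD2 and SMAD3, rose from 25.9, 26.2 and 31.3 CPM to 47.7, 49.9 and 52.6 CPM (0.85 ± 0.07, adjusted p = 3.9e-09), opposite to SKIL.

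**Figure D4:**
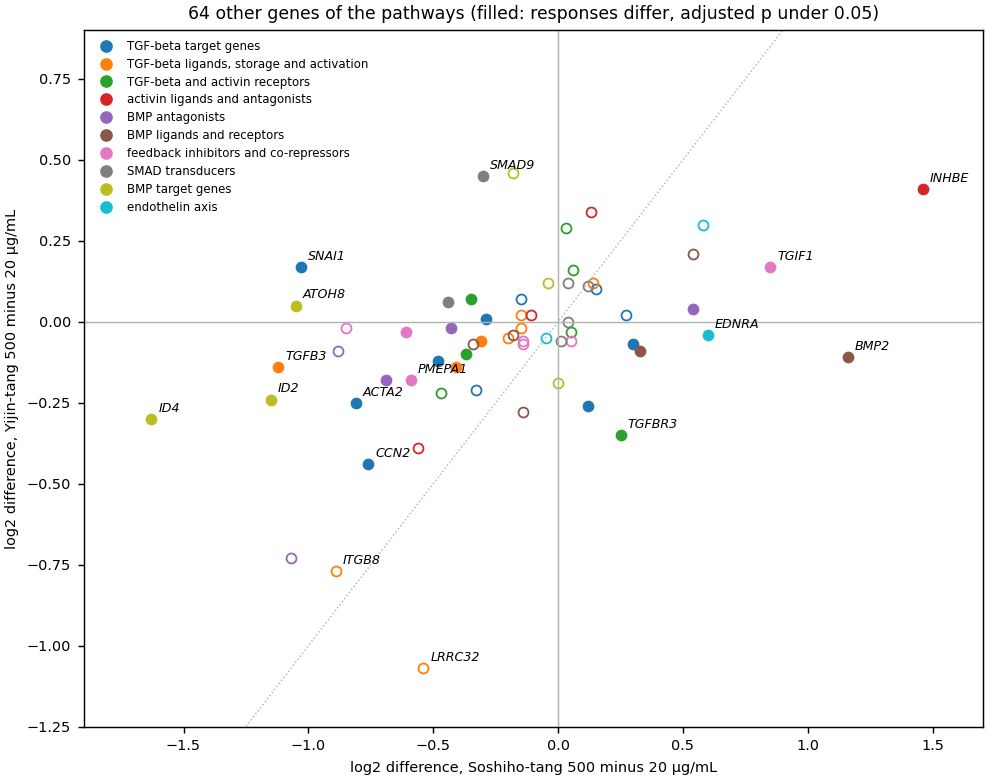
Log2 difference between 500 and 20 µg/mL for 64 other genes of the pathways in Soshiho-tang (horizontal axis) and Yijin-tang (vertical axis), coloured by list, with the line of equal response dotted. Filled points are the 28 genes whose responses differed between both extracts; ID4 and INHBE lie at -1.63 and 1.46 in Soshiho-tang and at -0.30 and 0.41 in Yijin-tang.

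Between both extracts at 500 µg/mL, 35 of the 64 genes passed, 9 higher and 26 lower with Soshiho-tang (median -0.13), where 25.2% of all genes did, 12.5% higher and 12.8% lower. ID4 (-1.50 ± 0.17 SE), SNAI1 (-1.48 ± 0.14) and ATOH8 (-1.38 ± 0.09) were furthest below, with edgeR adjusted p of 3.7e-07, 2.3e-08 and 1.8e-10. BMP2 (1.16 ± 0.23, adjusted p = 0.00067) and INHBE (1.03 ± 0.20, adjusted p = 0.00041) were furthest above. At 100 µg/mL only TGFBR3 (0.42 ± 0.08, adjusted p = 0.0162) and GREM1, a BMP antagonist (-0.44 ± 0.08, adjusted p = 0.00481), passed, where 0.753% of all genes did, and the count was 1 without replicate 1 or 2 of either extract. Okbyeongpung-san at 500 µg/mL had 28 of 65 genes past the threshold against Soshiho-tang, 25 higher and 3 lower (18.3% of all genes), and 25 of 65 against Yijin-tang, 14 higher and 11 lower (21.7%). Against vehicle, 44, 26 and 23 of 64 passed at 500 µg/mL of Soshiho-tang, Yijin-tang and Okbyeongpung-san, where 43.9%, 31.3% and 24.7% of all genes did. At 20 µg/mL 14, 13 and 4 of 64 passed, or 21.9%, 20.3% and 6.25%, next to 21.8%, 19.8% and 2.24% of all genes. Without Okbyeongpung-san replicate 2 at 500 µg/mL, 18 passed against Soshiho-tang and 13 against Yijin-tang, and without vehicle replicate 2 the 23 became 14. Without any 1 of the 5 libraries behind it, the 4 for Okbyeongpung-san at 20 µg/mL became 0.

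Likeness of pattern was described over the mean log2(CPM + 1) of the 10 groups with replicates, among 13854 genes. The 5 genes most like EDN1 were MTCL1 (Pearson r = 0.975), XYLT1 (0.973), CTIF (0.972), SVEP1 (0.971) and ACTG1 (0.971), where the 99th percentile of all genes was 0.915. Among those most like ID1 were ZSCAN31 (0.983), DLX1 (0.964), PDE7B (0.962) and SNAP25 (0.961), with a 99th percentile of 0.865. Among the 10 genes themselves, EDN1 was closest to BMP4 (0.97) and SMAD7 (0.95) and ran against INHBA (-0.66), while ID1 was unrelated to INHBA (-0.01). These points share the library sets and the low values of Soshiho-tang at 500 µg/mL, and genes are not independent replicates.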

How the data were processed

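Libraries from SW1783 RNA kept strand information (MGI directional kit) and were read from both ends, per the labels' protocols. The deposited values are expected counts (estimated counts), 1 row per Ensembl gene, from RSEM 1.3.3 after STAR 2.7.3a, Trim Galore 0.6.5 and FastQC 0.11.9 on build GRCh38 (hg38), per the submitters' processing notes. Neither the annotation release nor whether counting used strand is given in the sources used here. RSEM divides ambiguous reads, and 9.24% to 10.73% of values per library were not whole. Values were rounded to whole counts. Symbols follow current names, and coordinates and exon lengths come from GENCODE v29 (GRCh38), which held 57055 of 60675 entries. Promoter sequences are from RefSeq (GRCh38.p14).

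Counts were tested with edgeR 4.0.16 (R 4.3.3, limma 3.58.1): TMM scaling, filterByExpr (minimum count 10, minimum total 15), quasi-likelihood F test and Benjamini-Hochberg adjustment over all genes, with a threshold of 0.05. One fit held Soshiho-tang, Yijin-tang and vehicle (21 libraries, 16872 genes), another Okbyeongpung-san and vehicle (9 libraries, 16643 genes), and the last was used across library sets (27 libraries, 17396 genes). Soyo-san was described as log2 ratios of CPM + 1. DESeq2 1.42.0, other scaling, no filter, other sets of libraries, a replicate term, each library left out and a pseudocount of 0.1 CPM were alternatives. The tests were checked on simulated counts with known changes.

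The 10 genes, the 10 pathway lists and the tests were chosen with earlier results of these data known. Of the other pathway genes the text names, per list and comparison, up to 2 called genes with the largest absolute log2 difference that reach 1 CPM in the higher group, and always EDNRA, EDNRB, ECE1 and CCN2; some genes that this rule or the likeness of pattern would name are not reported here. For 24 replicate pairs, chi-square per degree of freedom lay between 3.21 and 39.47, so no pair looked like 1 library deposited more than once. Replicate numbers of Okbyeongpung-san stand for the title batches. Deviations of same-numbered libraries correlated at 0.24 for 500 and 20 µg/mL and at 0.63 for 100 and 20. With 2 libraries per dose both numbers give the same value, so it cannot show whether the doses are paired beyond the batch. Its SEs and p-values come from fits without a batch term. Blocking on the number changed no count of the 10 genes called between its doses.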

Additional observations from a re-analysis of the deposited data

Results flagged for a closer look

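For 17 of 25 pathway genes named for 500 against 20 µg/mL of Soshiho-tang or Yijin-tang, the difference between both doses itself differed between the 2 extracts in edgeR's interaction test. Of all genes, 13.6% passed that test, and most of the 25 were named for a large difference in 1 of these extracts, so the count describes chosen genes. Values are log2 differences of Soshiho-tang minus those of Yijin-tang, with SE and adjusted p over all genes. The 10 genes of the report were left out because they were chosen on these contrasts, and no group had enough libraries for a test of single outlying values.

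Of the 17 genes, 11 lay below 0. ID4 differed by -1.33 ± 0.22 (adjusted p = 0.000152), ID2 by -0.90 ± 0.11 (adjusted p = 3.55e-06), SNAI1 by -1.20 ± 0.19 (adjusted p = 8.74e-05) and the ligand TGFB3 by -0.98 ± 0.11 (adjusted p = 2.1e-06). SMAD9 differed by -0.75 ± 0.17 (adjusted p = 0.00327), and here the extracts lay on either side of 0, at -0.30 in Soshiho-tang and 0.45 in Yijin-tang. SMAD6 (-0.59), ACTA2 (-0.56), SMAD3 (-0.50), PMEPA1 (-0.41), CCN2 (-0.32) and TGFBR2 (-0.27) had adjusted p-values from 1.8e-05 (SMAD3) to 0.027 (CCN2).

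The other 6 lay above 0. BMP2 differed by 1.27 ± 0.35 (adjusted p = 0.0175), INHBE by 1.05 ± 0.31 (adjusted p = 0.0276), TGIF1 by 0.68 ± 0.10 (adjusted p = 4.02e-05), EDNRA by 0.63 ± 0.20 (adjusted p = 0.0365), TGFBR3 by 0.60 ± 0.12 (adjusted p = 0.000843) and CDKN2B by 0.38 ± 0.07 (adjusted p = 0.000367). The differences for EDNRA, INHBE, CCN2 and BMP2 did not pass when some single libraries were left out, with adjusted p up to 0.15, 0.0999, 0.0909 and 0.0545.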

How the results depend on the processing

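Where a difference passed the threshold in the main fit or in the alternative, no direction reversed for the 10 genes or the named pathway genes. Changes of sign in differences that passed in neither were not counted. Of 2196 values of the 10 genes under alternatives, 2070 stayed on their side of the threshold, 87 lost it and 39 gained it, and of 2552 values of pathway genes 263 lost it and 3 gained it. The counts of the 10 genes called at 500 against 20 µg/mL stayed within 1.5 times for all 3 extracts. Counts below are given as main value, then alternative, for the 10 genes, the other pathway genes or all genes. The cause of each shift was not tested. Depth limits EDN1 most, with 20 counts in its lowest library.

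With DESeq2's test, all genes called went from 372 to 708 for 20 µg/mL of Okbyeongpung-san against vehicle, from 22 to 56 for Soshiho-tang against Yijin-tang at 20, from 1 to 9 for Yijin-tang 100 against 20, and from 0 to 4 for the difference of the 100 against 20 response. Of the 10 genes 1 was then called in that difference and 1 in Okbyeongpung-san at 20 against vehicle (0 before), and 1 pathway gene each (0 before) in Soshiho-tang against Yijin-tang at 20 and in Yijin-tang 100 against 20. DESeq2's size factors took pathway genes from 4 to 2 for Okbyeongpung-san at 20 against vehicle.

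In the fit of 27 libraries, Okbyeongpung-san at 20 against vehicle went from 372 to 2162 genes, from 0 to 1 of the 10 and from 4 to 9 pathway genes, and 500 against 20 from 1716 to 3082 genes and from 7 to 18 pathway genes. Without the filter, all genes called went from 0 to 65 (difference of the 100 against 20 response), 0 to 44 (Okbyeongpung-san 100 against 20), 372 to 1442 (its 20 against vehicle), 1716 to 2604 (its 500 against 20), 12 to 101 (Soshiho-tang 100 against 20), 1 to 67 (Yijin-tang 100 against 20), and 127 to 396 and 22 to 252 (both extracts at 100 and 20). Of the 10 genes, 2 in place of 0 were called for Okbyeongpung-san at 20 against vehicle, 8 in place of 5 at 500 against vehicle, 2 in place of 0 between Soshiho-tang and Yijin-tang at 20, and 4 in place of 2 for Yijin-tang at 20 against vehicle. Pathway genes went from 7 to 13 (Okbyeongpung-san 500 against 20), 0 to 1 (Soshiho-tang 100 against 20), 0 to 4 (both extracts at 20) and 0 to 2 (Yijin-tang 100 against 20).

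With only the groups compared, all genes went from 372 to 797 and from 1716 to 523 (Okbyeongpung-san 20 against vehicle and 500 against 20), 3181 to 2065 and 3778 to 1571 (it against Soshiho-tang and Yijin-tang), 12 to 3 (Soshiho-tang 100 against 20), 127 to 46 and 22 to 6 (both extracts at 100 and 20), and 1 to 0 and 951 to 308 (Yijin-tang 100 and 500 against 20). The 10 genes went from 5 to 8 (Okbyeongpung-san 500 against vehicle), 10 to 6 and 4 to 1 (it against Soshiho-tang and Yijin-tang) and 2 to 1 (both extracts at 100). Pathway genes went from 7 to 3 (Okbyeongpung-san 500 against 20), 25 to 10 (it against Yijin-tang), 2 to 0 (both extracts at 100) and 10 to 4 (Yijin-tang 500 against 20).

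With a replicate block, Okbyeongpung-san at 20 µg/mL against vehicle went from 372 to 40 genes and from 4 to 0 pathway genes. That block ties vehicle to Okbyeongpung-san by number only, since all vehicle libraries are batch E. Every other count stayed within 1.5 times, such as 10 of the 10 genes and 40 pathway genes for Soshiho-tang 500 against 20. Same-numbered libraries of Soshiho-tang, Yijin-tang and vehicle correlated between -0.34 and 0.27, and the number was not treated as a pairing.

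Leaving out each library in turn gave the following lowest and highest counts. For all genes they were 0 to 1 and 630 to 1966 (Okbyeongpung-san 100 and 500 against 20), 9 to 26 and 2228 to 3869 (its 20 and 500 against vehicle), 1811 to 3276 and 2133 to 3989 (it against Soshiho-tang and Yijin-tang), 3 to 7 (Soshiho-tang 100 against 20), 61 to 124 and 8 to 38 (both extracts at 100 and 20), 0 to 1 and 505 to 1057 (Yijin-tang 100 and 500 against 20) and 2081 to 2822 (Yijin-tang 20 against vehicle). The 10 genes ranged from 3 to 6 (Okbyeongpung-san 500 against vehicle), 6 to 8 and 1 to 3 (it against Soshiho-tang and Yijin-tang), 1 to 2 (both extracts at 100) and 1 to 2 (Yijin-tang 20 against vehicle). Pathway genes ranged from 0 to 0 and 14 to 22 (Okbyeongpung-san 20 and 500 against vehicle), 4 to 7 (its 500 against 20), 18 to 26 and 13 to 23 (it against Soshiho-tang and Yijin-tang), 1 to 3 (both extracts at 100) and 5 to 9 (Yijin-tang 500 against 20).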
